A study of Mus musculus with 5 samples.

Results

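A group of genes of the cellular defence against oxidants was followed across cell types of AOM/DSS colonic tumors under chemotherapy and of the normal colon. They were *Gclc* and *Gclm*, *Gsta1*, *Gsta4* and *Gstm1*, *Gpx2*, *Txnrd1*, *Srxn1*, *Nqo1* and *Hmox1*, chosen by name and found in all 5 libraries, 10 of 23268 genes. Single cells were profiled by inDrop scRNA-seq, in which each transcript molecule carries a unique molecular identifier (UMI). All animals were WT mice of C57BL/6J or C57BL/6J;129 mixed background, 6 to 12 weeks old at the start of experiments. In 4 libraries the tumors had been induced by azoxymethane (AOM, 10 mg/kg) and dextran sodium sulfate (DSS, 2%). The mice then received 3 cycles of Irinotecan and 5-FU, 50 mg/kg of each, with 5 days of rest in a cycle. These libraries came from post-treatment day 1 (2 replicates), day 3 and day 6. The study's methods place the harvest after the last cycle, while its results speak of treatment lasting that many days. The study called both day 1 libraries early and the day 3 and day 6 libraries late. The 1 other library held untreated normal colon, dissociated to enrich stroma after most crypts had been removed, so that its epithelium is what that procedure left. Untreated tumors were not analysed here, and no comparison below measures the effect of chemotherapy itself.

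Glutathione is the main small thiol of the cell. Its first and rate-limiting step is run by glutamate-cysteine ligase, with *Gclc* as the catalytic and *Gclm* as the modifier subunit. Glutathione S-transferases (*Gsta1*, *Gsta4*, *Gstm1*) join it to reactive compounds, and glutathione peroxidases such as *Gpx2*, the form typical of gut epithelium, use it to reduce peroxides. A parallel system runs on thioredoxin, which *Txnrd1* keeps reduced, while *Srxn1* restores overoxidized peroxiredoxins. *Nqo1* reduces quinones, and *Hmox1* breaks down heme, a task well known from macrophages that take up red cells. Many of these genes are textbook targets of the transcription factor NRF2 (*Nfe2l2*), which KEAP1 holds in check and which binds the antioxidant response element.

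The core of that element was searched for because it is what ties most of these genes together in textbooks. The letters TGACNNNGC were sought on both strands in windows from 250 bases before to 50 bases after each annotated start (300 bases, RefSeq, GRCm38.p6). Of 32851 windows, 4071 held it (12.4%). The table had 10 windows for 7 of the genes. A match was found in 3 of these windows, those of *Gclm*, of *Srxn1* and of 1 of the 3 starts of *Txnrd1*, in each case on the strand opposite to the gene, so that the capitals below are its reverse complement. A match describes these letters only and says nothing of NRF2 binding. The 250 bases before the start of *Gclm*, which carried the most distant match, are shown with the matched bases in capitals, followed by 30 bases around the other matches.

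Gclm, chr3:122245307-122245556, plus strand: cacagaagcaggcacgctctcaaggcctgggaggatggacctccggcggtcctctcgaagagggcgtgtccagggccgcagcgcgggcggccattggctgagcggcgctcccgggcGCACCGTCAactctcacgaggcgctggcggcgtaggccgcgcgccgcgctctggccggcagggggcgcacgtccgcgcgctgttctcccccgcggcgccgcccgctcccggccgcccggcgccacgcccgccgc

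Txnrd1, chr10:82859104-82859133, plus strand: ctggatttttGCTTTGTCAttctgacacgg

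Srxn1, chr2:152105542-152105571, plus strand: gcagtgggcaGCTAGGTCAgagtgagacac

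Along the gene, the first matched base lay 134 bases before the annotated start in *Gclm*, 92 bases before it in *Txnrd1* and at base 29 after it in *Srxn1*.

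A cell was kept if it had at least 500 genes and at most 15% mitochondrial counts, which left 8491 cells, 748 to 2826 per library, from 5132360 to 16904947 UMIs per file. Pairs of libraries shared 4 to 41 cell barcodes. Cell types were rebuilt here from clusters and marker genes, and columnar, squamous, macrophage, neutrophil and the like stand for cells that resemble these types. Across the treated libraries there were 2502 columnar, 1092 squamous, 296 macrophage and 508 neutrophil cells, while 1137 cells stayed without a name. Levels are given in CPM, the usual counts of a gene scaled to a common total of UMIs, for which the counts of a gene and all UMIs were summed over the cells of a class in a library. The squamous marker list (17 genes such as *Krt5* and *Trp63*) summed to 27388 to 49475 CPM in squamous and 1062 to 3687 CPM in columnar cells. The columnar list (15 of 17 genes in the tables) summed to 8368 to 19689.9 CPM in columnar, 2384 to 6522 CPM in squamous and 6161 to 9129.7 CPM in neutrophil cells. Columnar genes were thus read in neutrophils too, and neutrophil levels are given below beside those of the epithelium. Whether neutrophils use the 10 genes themselves or carry free RNA of other cells was not tested, and their median depth was lower, at 1403 to 2287 UMIs, against 5549 to 8719 UMIs in columnar cells. The library structure was single index in day 1 replicate 1 and in day 3 and dual index in the rest. This structure, sequencer and mouse cannot be told apart. Different clusters made up a class in different libraries. Squamous cells came mainly from cluster 11 in day 1 replicate 1 and day 3, from clusters 7 and 15 in day 6, and from clusters 7, 15 and 21 in day 1 replicate 2.

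**Figure D1:**
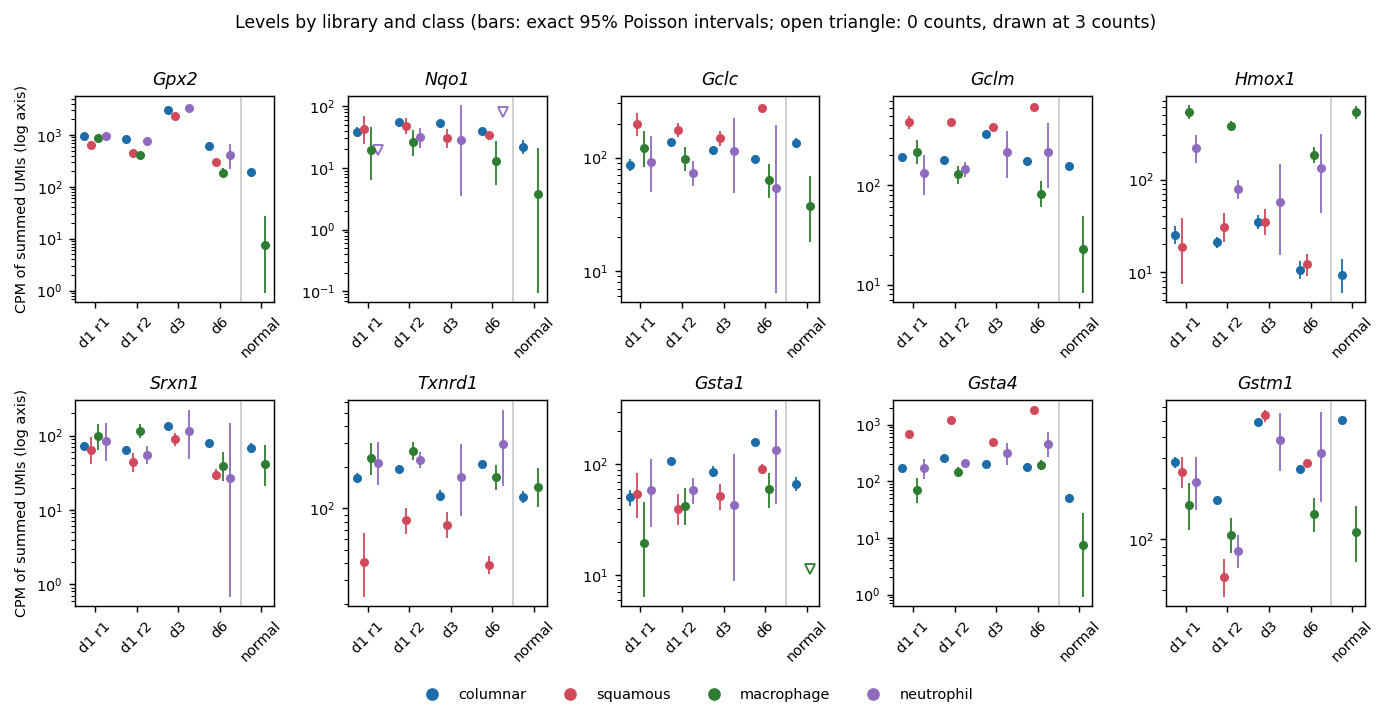
Levels of the 10 genes in CPM of summed UMIs (log axis) in each library (d1 r1 and d1 r2, both day 1 replicates; d3, day 3; d6, day 6; normal, normal colon), with points coloured by class and bars for exact 95% Poisson intervals of the counts. Squamous points of *Gsta4* lie from 499 to 1802 CPM, above all columnar points of the treated libraries, and *Hmox1* is highest in macrophages, while *Gpx2* is highest in day 3 in columnar, squamous and neutrophil cells.

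Squamous cells carried more RNA for both subunits of glutamate-cysteine ligase and for *Gsta4*, and less for *Txnrd1*, than columnar cells of the same tumors. Of all 13132 genes tested, 2205 were called (16.8%), 7.71% higher and 9.08% lower in squamous cells, by edgeR's quasi-likelihood test with each library as a block and Benjamini-Hochberg adjustment. Of the 10 genes, 4 were called, 3 higher and 1 lower. *Gsta4* kept its call under each alternative that was run, also with any 1 library left out, while the other 3 calls each rested in part on a day 1 library.

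*Gclc* (GRCm38 chr9:77754535-77794485) encodes the enzyme subunit that ties glutamate to cysteine. In columnar cells it stood at 86.2 CPM in day 1 replicate 1, 137 in day 1 replicate 2, 116 in day 3 and 97.9 in day 6. In squamous cells of the same libraries it stood at 196, 176, 148 and 273 CPM. Each squamous level lay above every columnar level, and the neutrophil levels, at 91.8, 73.3, 114 and 53.7 CPM, lay in the columnar range or below it. The fitted level in squamous cells was 1.86-fold higher (log2 0.89 ± 0.22 SE, adjusted p = 0.0233 by edgeR, higher in 4 of 4 libraries). Without day 1 replicate 1 the adjusted p was 0.112 by edgeR.

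*Gclm* (chr3:122245557-122270732), whose product lowers the amount of glutamate that the catalytic subunit needs, had the larger difference of the pair. Columnar cells held 193, 179, 323 and 176 CPM in day 1 replicates 1 and 2, day 3 and day 6. Squamous cells held 427, 434, 382 and 609.9 CPM. The groups did not overlap, although the columnar cells of day 3 came close to the squamous cells of that library. Neutrophils stood at 131, 144, 213 and 215 CPM. The fit gave a 2.25-fold higher level in squamous cells (log2 1.17 ± 0.25 SE, adjusted p = 0.0139 by edgeR, 4 of 4 libraries). The call was lost without either day 1 library, with adjusted p = 0.0780 without replicate 1 and 0.0613 without replicate 2 by edgeR.

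*Gsta4* (chr9:78182774-78209349) encodes the transferase best known for clearing aldehydes that form when lipids are oxidized, and it differed most. Its level was 169, 261, 201 and 181 CPM in columnar cells and 685, 1228, 499 and 1802 CPM in squamous cells, in the same order of libraries. Every squamous level was above every columnar level, with the smallest gap within day 3. Neutrophils held 170.4, 209, 313 and 456 CPM and lay above the columnar level in 3 of 4 libraries, by 0.01 on the log2 scale in day 1 replicate 1. The part of free RNA in the columnar level was not tested. The fit gave a 4.84-fold higher level in squamous cells (log2 2.28 ± 0.29 SE, adjusted p = 0.00143 by edgeR, 4 of 4 libraries). The share of cells with at least 1 UMI told the same. With each cell thinned to 1000 UMIs, 45.5%, 54.3%, 34.0% and 69.7% of squamous cells had a UMI of *Gsta4*, against 13.9%, 18.5%, 18.7% and 23.2% of columnar and 14.9%, 15.4%, 28.6% and 40.9% of neutrophil cells. Unthinned shares were 75.0% to 97.3% in squamous cells, with median depths of 2558.5 to 6577 UMIs, and 59.5% to 73.4% in columnar cells, with 5549 to 8719 UMIs.

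**Figure D2:**
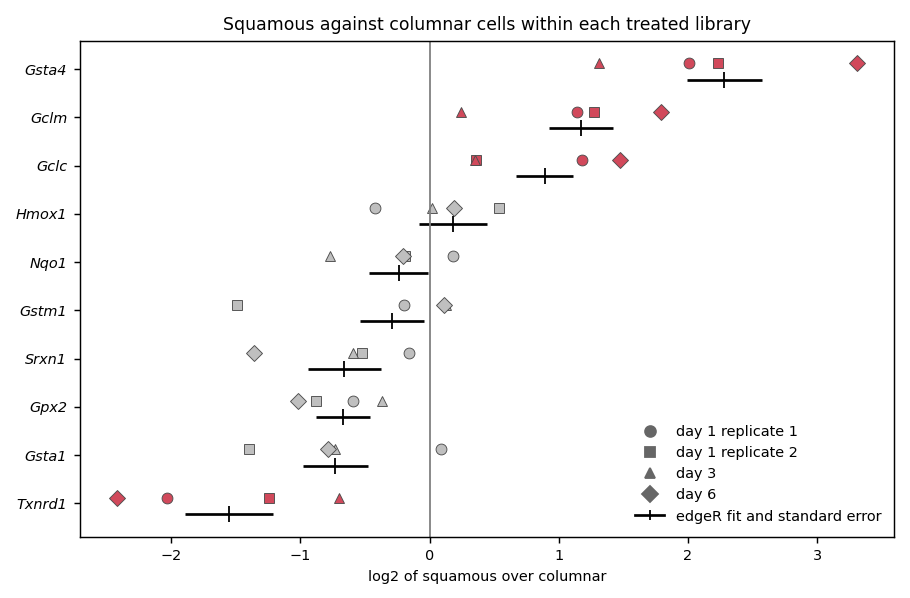
Log2 of the squamous over the columnar level for each gene, with 1 symbol per treated library (coloured for the 4 genes called by edgeR, grey for the others) and, below them, the edgeR fit with its standard error as a black bar. *Gsta4*, *Gclm* and *Gclc* lie to the right of 0 and *Txnrd1* to the left in all 4 libraries, and *Gstm1* lies on both sides.

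*Gsta1* (chr9:78230656-78242684) is the alpha-class transferase of the gut lining and the liver, and it shares sequence with *Gsta2*, so that reads of the pair may be split by the alignment. It stood at 50.4, 107, 86.3 and 158 CPM in columnar and 53.8, 40.0, 51.5 and 90.8 CPM in squamous cells. The ranges overlapped, and squamous cells held less in 3 of 4 libraries. The difference did not pass the test (log2 -0.73 ± 0.25 SE, adjusted p = 0.0795 by edgeR). Without day 1 replicate 1 it did, at an adjusted p of 0.0474 by edgeR. *Gstm1* (chr3:108012255-108017973), of the mu class with several close relatives beside it in the genome, stood at 283, 169, 491 and 260.1 CPM in columnar and 247, 59.5, 537 and 280.5 CPM in squamous cells. Here the spread between libraries was far wider than that between the classes (log2 -0.29 ± 0.25 SE, adjusted p = 0.496 by edgeR).

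*Gpx2* (chr12:76792333-76795554) reached 956, 840.2, 3066 and 602 CPM in columnar and 634, 455, 2371 and 296 CPM in squamous cells. It was lower in the squamous cells of each library, but the day 3 library was above all others in both classes. The difference did not pass the test (log2 -0.67 ± 0.21 SE, adjusted p = 0.0591 by edgeR). It was called as lower in squamous cells under 6 alternatives, DESeq2 among them. Neutrophils held 957, 765, 3285 and 403 CPM, as much as columnar cells of the same library in day 1 replicate 1 and day 3. In the normal colon, by contrast, macrophages held 7.55 CPM (2 counts) beside 197 CPM in columnar cells. Over all non-epithelial cells *Gpx2* stood at 704, 509, 2511 and 263 CPM in the tumors, and columnar cells held 1.36, 1.65, 1.22 and 2.29 times as much. The part of free RNA in these levels was not tested. Goblet cells stood above the columnar cells of their library, at 1850.2, 1429, 3655 and 764 CPM, as did the Paneth cells of day 1 replicate 2 with 1613 CPM.

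*Txnrd1* (chr10:82833951-82897712) was the gene with the lower level in squamous cells. Columnar cells held 168, 195, 124 and 211 CPM, and squamous cells 40.3, 81.9, 75.9 and 38.6 CPM. The squamous levels lay below every columnar level and below the neutrophils, which held 216, 225, 171 and 295 CPM. The fit gave a 2.93-fold lower level in squamous cells (log2 -1.55 ± 0.34 SE, adjusted p = 0.0147 by edgeR, 4 of 4 libraries), and without day 1 replicate 1 the adjusted p was 0.0790 by edgeR. Thinned to 1000 UMIs, 4.48% to 7.61% of squamous cells had a UMI of *Txnrd1*, against 10.8% to 19.8% of columnar cells. Unthinned shares were 21.8% to 28.8% and 43.8% to 68.2%. Its partner in the peroxiredoxin cycle, *Srxn1* (chr2:152105516-152111376), stood at 72.0, 63.4, 134 and 78.4 CPM in columnar and 64.5, 43.9, 88.6 and 29.9 CPM in squamous cells. It was lower in the squamous cells of each library without passing the test (log2 -0.66 ± 0.28 SE, adjusted p = 0.147 by edgeR).

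*Nqo1* (chr8:107388225-107403206), although a common readout of NRF2 activity, was low in all these classes. Columnar cells held 37.9, 54.8, 53.1 and 39.0 CPM and squamous cells 43.0, 47.8, 30.7 and 33.6 CPM. The classes overlapped (log2 -0.24 ± 0.23 SE, adjusted p = 0.565 by edgeR). Macrophages, at 19.7, 26.4 and 13.1 CPM in day 1 replicates 1 and 2 and day 6, lay below every columnar level, but these rest on 5, 18 and 7 counts and the difference did not pass the test (log2 -0.96, adjusted p = 0.0628 by edgeR). Neutrophils had 0 counts in day 1 replicate 1 and in day 6, which allow up to 19.7 and 80.6 CPM at 3 counts.

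*Hmox1* (chr8:75093621-75100589) was highest in macrophages. There it reached 532, 380.0 and 185 CPM in day 1 replicates 1 and 2 and day 6, and day 3 held too few macrophages (5) to be used. Columnar cells of all 4 treated libraries held 25.4, 21.2, 34.8 and 10.6 CPM and squamous cells 18.8, 31.2, 35.2 and 12.2 CPM. Columnar and squamous cells thus overlapped (log2 0.18 ± 0.26 SE, adjusted p = 0.726 by edgeR), and no macrophage level came near either. Stromal cells reached such levels in places, with 358 CPM in fibroblasts and 153 CPM in endothelial cells of day 1 replicate 2. Between macrophages and columnar cells the fit gave a 21.9-fold difference (log2 4.45 ± 0.26 SE, adjusted p = 8.18e-07 by edgeR, 3 of 3 libraries). Of 12041 genes tested in that comparison, 24.9% were called, and of the 10 genes, 2. The other was *Gsta1*, which was lower in macrophages, with 19.7, 42.6 and 59.7 CPM (log2 -1.17 ± 0.27 SE, adjusted p = 0.0107 by edgeR). That call was lost without day 1 replicate 2 (adjusted p = 0.0944 by edgeR), and the macrophage level of day 6 lay above the columnar level of day 1 replicate 1. *Gpx2*, at 875, 408 and 188 CPM in macrophages, was lower than in the columnar cells of each library without passing the test (log2 -0.71, adjusted p = 0.148 by edgeR), and passed it without day 1 replicate 1 (log2 -1.21, adjusted p = 0.0148 by edgeR). Without day 6, *Gsta4* was called as well, as lower in macrophages, and *Srxn1* and *Txnrd1* were called as higher.

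Neutrophils also held more *Hmox1* than columnar cells, with 216, 78.7, 56.9 and 134 CPM from 33, 73, 4 and 5 counts. All these levels lay above the columnar ones, but in day 3 lymphatic cells (98.0 CPM), fibroblasts (90.8 CPM) and endothelial cells (69.4 CPM) held more than neutrophils. The difference was 5.92-fold (log2 2.57 ± 0.38 SE, adjusted p = 1.95e-10 by edgeR, 4 of 4 libraries). Within libraries it ran from log2 0.69 in day 3 to 3.54 in day 6, and no weight is placed on how small this p is. The day 3 level, from 4 counts, had an exact Poisson interval of 15.5 to 146 CPM, which holds the columnar level of 34.8 CPM. *Hmox1* was the 1 gene of the 10 to be called between neutrophils and columnar cells. In that comparison 16.6% of 12297 genes were called, 11.7% higher and 4.87% lower. Macrophage markers (10 genes) summed to 996 to 4082 CPM in neutrophils, against 18424 to 22911 CPM in macrophages and 119 to 171 CPM in columnar cells, and *C1qc* and *Mrc1* were at 0 in neutrophils of 2 libraries, day 1 replicate 1 and day 6. The part of macrophage RNA in the neutrophil level was not tested. *Txnrd1* was 1.47-fold that of columnar cells in neutrophils and 1.34-fold in macrophages, neither past the test (adjusted p = 0.314 and 0.315 by edgeR).

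A list of 70 other genes of glutathione, thioredoxin, iron and NADPH metabolism was read for the same comparisons. Between squamous and columnar cells 68 could be tested, of which 5 were higher and 10 lower (22.1%, beside 16.8% of all genes), with a median log2 difference of -0.20 beside -0.07 over all genes. The higher ones included *Aldh3a1*, an aldehyde dehydrogenase of stratified epithelia (log2 3.53), *Gsto1*, an omega-class transferase (2.54), *Gsta2* (2.49) and *Cat*, the peroxisomal catalase (1.60). *Gsto1* stood at 582, 662, 1046 and 1384 CPM in columnar and at 2819.8, 5587, 3283 and 10684 CPM in squamous cells. *Gsta2* stayed at 14.5 CPM or less in both classes. The lower ones included *Abcc2*, which exports glutathione conjugates (log2 -2.53), *Duox2*, a source of hydrogen peroxide at the apical membrane (-1.97), *Gstt2* (-1.63), *Gstm6* (-1.55) and *Cbr1*, a carbonyl reductase (-1.29). Both directions thus occurred among the transferases.

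In macrophages 67 genes of the list could be tested against columnar cells, with 16 higher and 13 lower (43.3%, beside 24.9% of all genes). Higher were *Cybb*, the phagocyte NADPH oxidase (log2 7.61), *Slc7a11*, which imports cystine for glutathione synthesis (3.89), *Bach1*, a repressor of *Hmox1* (2.15), and the ferritin chains *Fth1* (2.04) and *Ftl1* (1.86). *Slc7a11* stood at 571, 870.1 and 313 CPM in macrophages of day 1 replicates 1 and 2 and day 6, and at 88.3, 63.7 and 13.6 CPM in columnar cells of those libraries. Lower were *Gstm3* (-3.10), *Abcc2* (-2.65), *Me1* (-2.28), *Gstk1* (-1.44) and *Mgst3* (-1.42). Some of these folds rest on very few macrophage counts. In day 6 *Gstm3* and *Me1* stood at 1.86 CPM each and *Abcc2* at 0, where 3 counts make 5.59 CPM. In day 1 replicate 1 *Gstm3*, *Me1* and *Gstk1* stood at 0, 3.94 and 7.88 CPM, where 3 counts make 11.8 CPM. *Gstm3* stood at 1.47 CPM in day 1 replicate 2. In neutrophils 13 of 68 were higher and 2 lower (22.1%, beside 16.6%), among them *Cybb*, *Slc7a11* (2.72), *Gsr*, the glutathione reductase (1.92), *Glrx* (1.86) and *Prdx5* (1.54), with *Prdx1* lower (-0.93). The median of all genes in the neutrophil comparison was -0.20 with TMM and -0.33 with DESeq2 size factors, and its differences are to be read against that shift.

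Within the squamous cells of day 6, *Gclm* and *Gsta4* were highest in different clusters. Cluster 7 was led by *Trp63*, *Krt17* and *Col17a1*, genes of basal keratinocytes, and cluster 15 by genes of upper layers, *Krt4* and *Krt13* among them. *Gclm* stood at 986 CPM in cluster 7 (313 cells) and at 277 CPM in cluster 15 (270 cells), a ratio of 3.56. *Gsta4* went the other way, with 980 and 2530.5 CPM, as did *Gclc*, with 205 and 332 CPM, and *Gsta1*, with 55.4 and 122 CPM. In day 1 replicate 2 the same clusters held 50 and 13 cells and kept this order. There *Gclm* stood at 451 and 193 CPM, *Gsta4* at 793 and 2427 CPM, *Gclc* at 175 and 214 CPM and *Gsta1* at 16.3 and 76.6 CPM. The exact 95% Poisson intervals of *Gclc* overlapped there, at 139.8 to 216 and 160.0 to 279 CPM. *Txnrd1* was low in both clusters, at 40.7 and 36.8 CPM in day 6. Clusters 11 (day 3, 499 CPM) and 21 (day 1 replicate 2, 938 CPM) also held *Gsta4* above the columnar level of their library. The 10 genes were left out of clustering, but other genes of the same cells were used and cells are not replicates, so these values are descriptions with no test.

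**Figure D3:**
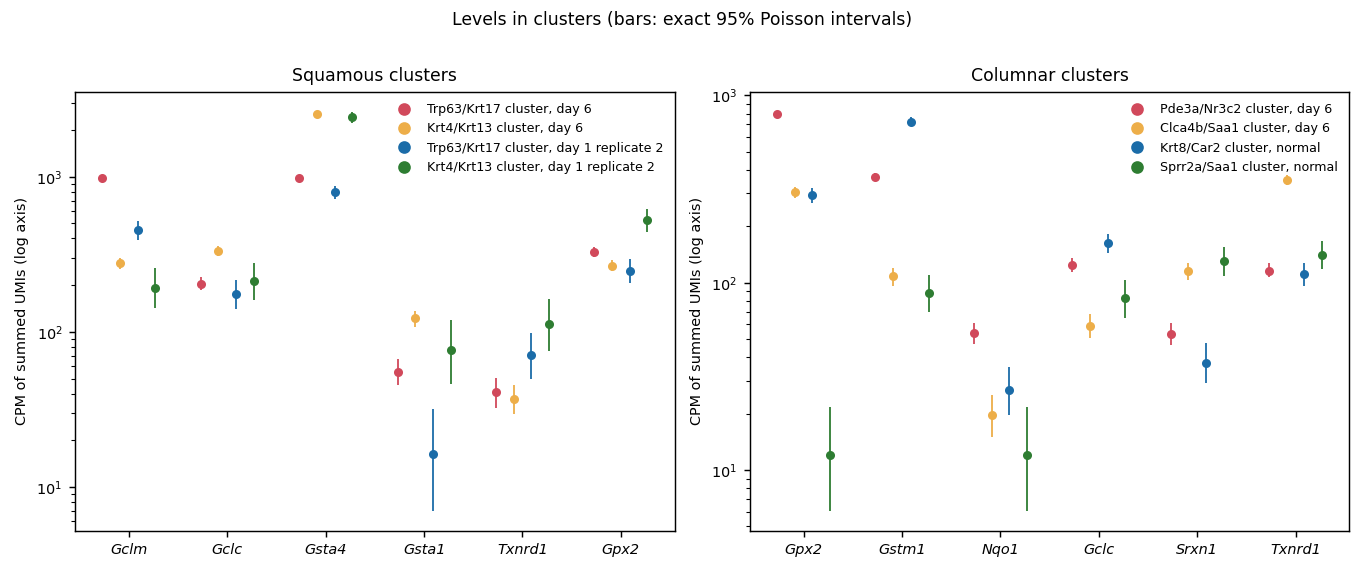
Levels in CPM (log axis) in a pair of squamous clusters from day 6 and day 1 replicate 2 (left) and in columnar clusters from day 6 and the normal colon (right), with exact 95% Poisson intervals. *Gclm* is higher in the Trp63/Krt17 cluster and *Gsta4* in the Krt4/Krt13 cluster in both libraries, and *Gpx2* and *Gstm1* are lower in the Saa1 clusters of both tumor and normal colon.

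Columnar clusters of the treated libraries differed in *Gsta1*. In clusters 4, 6 and 12, led by genes of WNT signalling such as *Wif1*, *Rnf43* and *Lgr5*, it reached at most 53.6 CPM in any library. In clusters 9 and 10, led by genes of mature colonocytes such as *Clca4a*, *Car1* and *Krt20*, it stood at 185 CPM (cluster 9, day 1 replicate 2), 217 CPM (cluster 10, day 1 replicate 1) and 121 CPM (cluster 10, day 3). In clusters 1 and 14, which made up most columnar cells of day 6, it stood at 164 and 160.2 CPM. No cluster of the WNT kind reached the lowest level of the others. Neutrophils held 42.7 to 134 CPM, above the levels of cluster 4 in all 4 libraries.

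Mature columnar cells of day 6 and of the normal colon showed the same split for several genes. In day 6, cluster 14 (led by *Pde3a* and *Nr3c2*) and cluster 1 (led by *Clca4b*, with *Saa1*, a surface epithelial gene) held *Gpx2* at 793 and 304 CPM, *Gstm1* at 367 and 108 CPM and *Nqo1* at 53.6 and 19.7 CPM. *Gclc* stood at 125 and 59.0 CPM in the same clusters. *Srxn1* and *Txnrd1* went the other way, with 53.3 and 115 CPM and with 116 and 353 CPM. In the normal colon, cluster 0 (157 cells, *Krt8*, *Car2*) and cluster 1 (143 cells, Sprr2a genes, *Saa1*) held *Gpx2* at 293 and 12.1 CPM, *Gstm1* at 723 and 88.3 CPM, *Nqo1* at 26.7 and 12.1 CPM and *Gclc* at 163 and 82.7 CPM. *Srxn1* stood there at 37.5 and 130.2 CPM and *Txnrd1* at 111 and 141 CPM. Thus the glutathione peroxidase and the mu-class transferase were lower, and *Srxn1* higher, in the *Saa1* cluster of both tissues. For *Txnrd1* the exact 95% Poisson intervals of the normal clusters overlapped, at 96.3 to 128 and 118 to 168 CPM. Those of *Nqo1* did too, at 19.6 to 35.5 and 6.06 to 21.7 CPM. *Gsta4* showed this split in the normal colon, where cluster 0 held 6.45-fold the level of cluster 1, and not in day 6, with 171 and 198 CPM. *Gsta1* likewise stood at 79.5 and 43.0 CPM in the normal clusters and at 160.2 and 164 CPM in those of day 6.

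Beside the tumors, columnar cells of the normal colon (300 cells) held less of 4 of the 10 genes than any treated library, with an exact 95% Poisson interval wholly below all 4 levels. By this rule 16.4% of 12641 genes lay below all treated columnar levels and 12.7% above. The study had 1 such library, of another dissociation, and no test was made. *Gpx2* stood at 197 CPM (exact 95% Poisson interval 181 to 215), against 602 to 3066 CPM in columnar cells of the tumors. *Gsta4* stood at 50.6 CPM (42.5 to 59.9), against 169 to 261 CPM. *Nqo1* stood at 21.8 CPM (16.5 to 28.1), against 37.9 to 54.8 CPM. *Gclm* stood at 155 CPM (140.3 to 171), against 176 to 323 CPM, the narrowest gap of the 4. *Gclc* (135 CPM), *Gsta1* (67.1 CPM) and *Srxn1* (69.0 CPM) lay within the tumor range, and *Txnrd1* (122 CPM) and *Hmox1* (9.38 CPM) just under it with intervals that reach it. *Gstm1*, at 507 CPM (481 to 535), lay above the 169, 260.1 and 283 CPM of 3 treated libraries and beside the 491 CPM of day 3. Goblet cells of the normal colon (71 cells) lay below all 4 treated goblet levels in *Gpx2* (217 CPM), *Gsta4* (29.2) and *Gsta1* (22.7). They lay above them in *Gstm1* (571 CPM). Their *Nqo1* (13.0 CPM) and *Gclm* (139 CPM) had intervals that reached the treated goblet levels, 14.5 to 40.2 and 114 to 193 CPM. The remaining genes reached theirs too. The share of all genes was not counted for goblet cells. These intervals cover counting error only, not differences between mice.

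The columnar markers summed to 608 CPM in the macrophages of the normal library, against 3747 to 4342 CPM in those of the tumors, while the plasma cell markers summed to 16648 CPM against 1362 to 7818 CPM. The normal macrophages held 0 counts of *Gsta1*, which allows up to 11.3 CPM at 3 counts, and 2 counts of *Gsta4* (7.55 CPM). *Hmox1* was as high in them, at 529 CPM, as in tumor macrophages of day 1 replicate 1, at 532 CPM, while the macrophages of day 6 held 185 CPM. Thinned to 1000 UMIs, 31.2% of normal macrophages had a UMI of *Hmox1*, beside 8.70%, 17.3% and 5.36% of those of day 1 replicates 1 and 2 and day 6. Unthinned shares were 41.4% in the normal colon and 43.5%, 32.3% and 26.8% in the tumors. The shares did not follow the order of the CPM, and no order is read from them. *Gstm1* in the normal colon was not a gene of epithelium alone, with 1187 CPM in myofibroblasts and 729.7 CPM in fibroblasts.

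Whether the genes differed between late and early libraries was asked within each class, and none of the 10 was called. In columnar cells 0 of 13206 genes were called by edgeR (0%), with 2249 at an unadjusted p under 0.05 and 695 called by DESeq2. *Srxn1* had the smallest p of the 10, with 72.0 and 63.4 CPM in the early and 134 and 78.4 CPM in the late libraries. Both late levels were above both early ones, and the fit gave 2.07-fold (log2 1.05 ± 0.38 SE, adjusted p = 0.256 by edgeR). The fits used TMM scaling and plain CPM did not, so their values are not the same measure. For *Srxn1* the CPM ratios were smaller than the fit, at log2 0.88 in single index and 0.30 in dual index libraries. For *Txnrd1* the fit gave log2 0.32, beside CPM ratios of -0.43 and 0.11. *Gstm1* (log2 1.13, adjusted p = 0.307 by edgeR) and *Gsta1* (log2 1.08, adjusted p = 0.352 by edgeR) overlapped between early and late libraries. Within each library structure both were higher late. *Gstm1* differed by log2 0.79 in single index and 0.62 in dual index libraries, and *Gsta1* by 0.76 and 0.56. Without day 3 *Gsta1* was called as higher late (adjusted p = 0.0479 by edgeR).

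*Gpx2* differed in opposite directions in the single index and in the dual index libraries. Its columnar levels in the day 1 libraries, 1 of each structure, were 956 and 840.2 CPM. The late libraries differ in day, structure and mouse, which cannot be told apart. Day 3 over day 1 replicate 1, both single index, gave log2 1.68 in columnar and 1.90 in squamous cells, and day 6 over day 1 replicate 2, both dual index, gave -0.48 and -0.62. In neutrophils the same pairs gave 1.78 and -0.92, so that columnar, squamous and neutrophil cells shared the direction. Its fitted change in columnar cells was log2 1.41 ± 0.76 SE (adjusted p = 0.395 by edgeR). Without day 3 it was -0.08, and without day 6 it was 2.14 and called (adjusted p = 0.0471 by edgeR).

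In squamous cells 0 of 9755 genes were called by edgeR (0%), with 367 at an unadjusted p under 0.05 and 17 by DESeq2. *Gstm1* had both late levels, at 537 and 280.5 CPM, above both early ones, at 247 and 59.5 CPM (log2 1.62 ± 0.73 SE, adjusted p = 1 by edgeR). *Nqo1* had both late levels below both early ones, by log2 -0.37 ± 0.47 SE (adjusted p = 1 by edgeR). How many of all genes were ordered in either of these ways was not counted. *Gsta4* and *Gclc* differed in opposite directions in the 2 structures, by log2 -0.46 and 0.55 and by -0.40 and 0.62. Whether late changes differed between squamous and columnar cells was tested by an interaction term, with 0 of 13132 genes called by edgeR (0%), 1282 at an unadjusted p under 0.05 and 71 by DESeq2. *Srxn1* came closest (log2 -0.95 ± 0.45 SE, adjusted p = 0.532 by edgeR). Without day 3 it was called (log2 -1.46, adjusted p = 0.0211 by edgeR), together with *Txnrd1*.

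**Figure D4:**
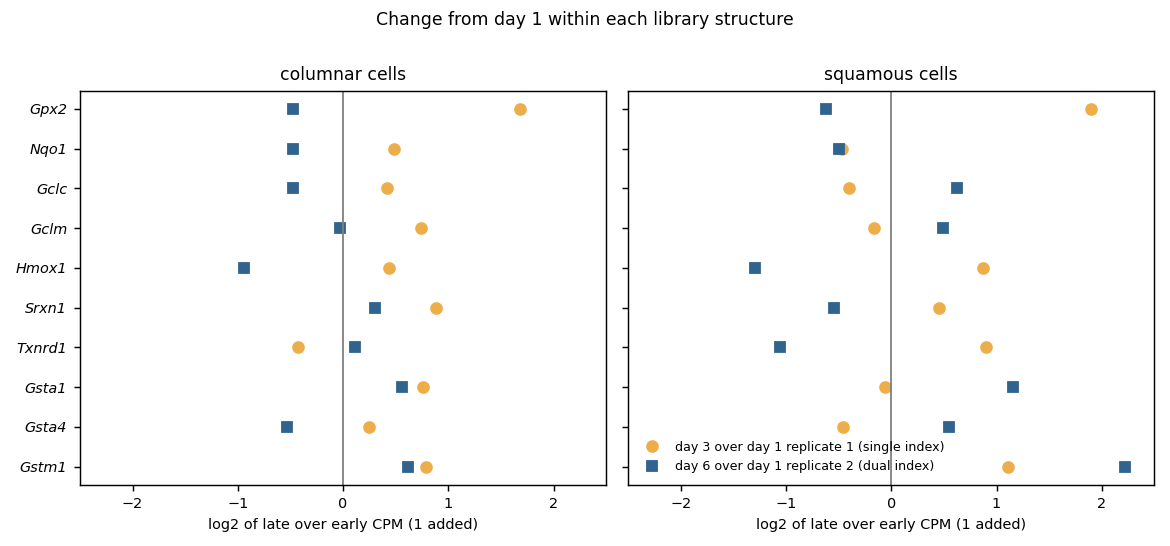
Log2 of the late over the early level (1 CPM added) within single index libraries (circles) and within dual index libraries (squares), for columnar (left) and squamous cells (right). *Gstm1* lies right of 0 in both structures and both classes, and *Gpx2* lies on opposite sides, at 1.68 and -0.48 in columnar cells.

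In macrophages day 6 was the 1 late library. It was assumed to vary like the early ones, and late stage and that library cannot be told apart. Against the early libraries 163 of 8592 genes were called (1.90%, with 1.16% higher and 0.733% lower) and none of the 10. *Gpx2* stood at 875 and 408 CPM in the early libraries and at 188 CPM in day 6 (log2 -1.62 ± 0.59 SE, adjusted p = 0.214 by edgeR). *Hmox1* (log2 -1.15, adjusted p = 0.545 by edgeR) and *Srxn1* (log2 -1.30, adjusted p = 0.434 by edgeR) were also below both early levels. Of the longer list, 56 genes could be tested and 3 were called (5.36%). *Aldh3a1* and *Gsto1*, the genes that marked squamous cells above, had higher values in day 6, and *Ephx1* a lower one (log2 -2.49). Squamous markers summed to 4478 CPM in the macrophages of day 6 and to 1486 and 1099 CPM in those of the early libraries, and their part in the *Aldh3a1* and *Gsto1* values was not tested. In neutrophils 7 of the 10 genes passed the count filter and 0 of 2414 genes were called by edgeR (0%), with 165 at an unadjusted p under 0.05 and 6 by DESeq2. Without day 6, with 1 late library left, *Gpx2* was called in neutrophils. Of the longer list, none was called in columnar (67 tested), squamous (61) or neutrophil cells (35), with median log2 differences of 0.62, 0.54 and 0.51 beside 0.02, 0.04 and 0.07 over all genes. In macrophages, where day 3 was not used, the median of the list was 0.02 beside -0.03 over all genes.

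The genes whose levels ran most like each member were read over 51 sums of a library and a class, as Pearson's r of log2(CPM + 10) among 17902 genes, with no test since sums of 1 library share its preparation and depth. *Gsta4* went with squamous genes, *Krt14* (r = 0.93), *Anxa8* (0.92) and *Sprr1a* (0.91). *Gpx2* went with *Lsr* (0.94), *Krt7* (0.91) and *Ppp1r1b* (0.90), and *Gsta1* with *Krt20* (0.88), *Krt19* (0.87) and *Mgst3* (0.87). *Hmox1* was closest to *Cebpb*, *Ier3* and *Tgfbi* (0.74 each) and *Gstm1* to *Hcfc1r1* (0.82), *Aldh2* (0.81) and *Ndrg2* (0.78). *Gclm* came closest to *Jup* (0.79), *Txnrd1* to *Map2k3* (0.77), *Srxn1* to *Lmna* (0.75) and *Nqo1* to *Ptpn14* (0.70). *Gclc* had the weakest partner, *Il1rl2* (0.63). Among the 10 genes themselves the highest r was between *Gsta1* and *Gsta4* (0.80), and the subunits *Gclc* and *Gclm* had r = 0.54.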

How the data were processed

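Each of the 5 inDrop libraries has 1 deposited file of unnormalized counts (UMIs of each gene in each cell). The authors obtained them by running dropEst against the GRCm38 genome. Of 8559 barcodes, 8491 passed the study's limits (at least 500 genes, at most 15% mitochondrial counts). Treated libraries were clustered together and the normal library on its own (2000 variable genes without the 10 reported, 20 components, Leiden resolution 1, leidenalg 0.10.2), giving 26 and 16 clusters. A cluster was named from marker lists at folds of at least 2, or 1.5 against non-epithelial cells for columnar and squamous, with at least 3 markers. For columnar and squamous the fold applied to each marker counted, not to the mean of the list. Columnar clusters 4, 6 and 12, which held many columnar cells of the day 1 libraries, counted 3, 5 and 5 markers. Their mean log2 folds were only 0.252, 0.535 and 0.396, beside 0.331 with 3 markers in unnamed cluster 8. This naming rule was set after the clusters were seen, and clusters that mixed columnar and squamous or goblet markers, or had too little depth, stayed unnamed. Scrublet in scanpy 1.11.5 called 12 treated cells, under 0.5%, so it had not worked there, and 7 normal cells. No doublets were removed.

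Counts were summed per library and class (at least 10 cells) and tested with edgeR 4.0.16 in R 4.3.3 (TMM, filterByExpr, quasi-likelihood test, Benjamini-Hochberg over all genes tested, threshold 0.05), with DESeq2 1.42.0 as an alternative. Classes were compared with the library as a block, late and early libraries without one. Replicates are different mice. The method was also run on simulated counts with the same spread for every gene and no differences between libraries other than depth. That run says nothing of differences between libraries or of cluster make-up. Promoter sequences are RefSeq's on GRCm38.p6, and gene positions are those of the reference annotation on that build. Counts of 0 are given with the limit that 3 counts allow. The tables were read whole, and totals ran from 5132360 to 16904947 UMIs per library.

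The 10 genes, the list of 70 and the classes were chosen with earlier results of these data known. Named genes were all 10 members, up to 5 called genes of the list in each direction with the same sign in every library, and for each member its closest correlates. Alternatives were DESeq2, no count filter, each library left out, library structure as a block, resolutions 0.5 and 2, cell-by-cell classes, removal of the 6% highest doublet scores, thinning to 1000 UMIs and means over cells. After the data were seen, unnamed clusters, or goblet and Paneth clusters, were also counted as columnar.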

Additional observations from a re-analysis of the deposited data

Results flagged for a closer look

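Some of the 10 genes stood above the non-epithelial cells of their library in clusters that entered no comparison because they had no clear name. In day 3 an unnamed cluster of 362 cells with a median of 1677.5 UMIs held *Gpx2* at 3768 CPM (exact 95% Poisson interval 3624 to 3915), beside 2511 CPM in non-epithelial and 3066 CPM in columnar cells, while columnar cluster 12 of that library held 3950.3 CPM. In day 6 an unnamed cluster of 767 cells with a median of 1285 UMIs, led by both columnar and squamous genes, held *Gpx2* at 707 CPM and *Gstm1* at 312 CPM, beside 263 and 187 CPM in non-epithelial cells and 793 and 367 CPM in columnar cluster 14. That cluster held *Gsta4* at 804 CPM, between the 181 CPM of columnar and the 1802 CPM of squamous cells of day 6. In the normal colon an unnamed cluster of 26 cells, led by both columnar and goblet genes, held *Gpx2* at 437 CPM, *Gclm* at 281 CPM and *Gstm1* at 911 CPM. These lay above the 197, 155 and 507 CPM of its columnar cells. Each is 1 cluster of 1 library with no replicate.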

How the results depend on the processing

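Between squamous and columnar cells 4 of the 10 genes were called, and 7 with no count filter or with classes called cell by cell, where *Gpx2*, *Gsta1* and *Srxn1* were added, all lower. *Gpx2* was also added by DESeq2, at resolution 2 and with unnamed clusters counted as columnar (5 called each), and with *Gsta1* where goblet and Paneth cells were (6 called). With each library left out 2 to 4 were called, and 1215 to 1827 genes in all. Against columnar cells macrophages had 2 called, 5 with no filter or with goblet and Paneth cells counted as columnar, and 4 at resolution 0.5, at resolution 2, cell by cell or with the highest doublet scores removed, with *Gpx2* and *Nqo1* lower each time. Leaving out libraries gave 1 to 5, and 1157 to 3439 genes. Neutrophils had 1 called, 3 cell by cell, and 1 to 1 with any library left out, and 791 to 2784 genes.

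Late against early, none of the 10 was called with all libraries under any setting. Leaving out libraries gave 0 to 1 in columnar cells (*Gsta1* without day 3, *Gpx2* without day 6), 0 to 0 in squamous, 0 to 1 in neutrophil cells and 0 to 2 for the interaction. The genes called numbered 1 to 1715 in columnar, 0 to 37 in squamous, 0 to 245 in neutrophil cells and 0 to 1142 for the interaction in those fits. In columnar cells 695 genes were called by DESeq2, 1140 with no filter and 250 with library structure as a block. In squamous cells these were 17 by DESeq2 and 79 with no filter, in neutrophils 6, 13 and, with the block, 6, and for the interaction 71 and 401, with 5 at resolution 2 and 11 with unnamed clusters counted as columnar. In macrophages 163 genes became 23 by DESeq2, 37 at resolution 2 and 0 cell by cell. The causes were not tested.

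Of 544 member fold changes under alternatives 26 changed sign, none of them a called one, 31 passed the test newly and 5 lost it. Cell by cell, they were *Hmox1* between squamous and columnar cells (log2 -0.05), late *Nqo1* (-0.33), *Gclc* (-0.12) and *Gsta4* (-0.28) in columnar cells, late *Gpx2* (1.13) and *Gclm* (0.54) in macrophages and the interaction of *Nqo1* (0.12). Late *Hmox1* in columnar cells was -0.05 at resolution 2. In squamous cells late *Hmox1* was 0.01 and *Txnrd1* 0.00 by DESeq2, and *Txnrd1* 0.01 with no filter and at resolution 2. Without 1 library, *Hmox1* ran from -0.02 to 0.31 and *Gstm1* from -0.46 to 0.03 between squamous and columnar cells. Late *Gpx2* (-0.08 to 2.14), *Hmox1* (-0.63 to 0.95) and *Txnrd1* (-0.18 to 0.71) in columnar cells, and *Gpx2* (-0.77 to 2.32), *Gclc* (-0.14 to 0.65), *Hmox1* (-1.03 to 0.59), *Srxn1* (-0.73 to 0.93), *Txnrd1* (-0.64 to 0.70) and *Gsta4* (-0.77 to 0.98) in squamous cells also crossed 0. Of 200 levels 4 moved by more than the spread between libraries.

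No paired analysis was possible because the late and early libraries came from different mice. Pairing them by library structure, as in the block above, is not a pairing of animals, and with it none of the 10 was called. The class comparisons already hold each library as a block. The late comparison in macrophages could not be fitted with a library left out, since it had 3. In leave-one-out fits that left 1 library in an arm, that library was assumed to vary like the others. Day 3 and day 6 neutrophils (28 and 23 cells) limit what could be seen there.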

Other observations

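In the treated libraries that held them, lymphatic endothelial cells had the highest *Nqo1* of the named classes. They held 357 CPM in day 1 replicate 2 (35 cells, exact 95% Poisson interval 283 to 445), 88.2 CPM in day 3 (25 cells) and 118 CPM in day 6 (82 cells), above the columnar level of each library, at 54.8, 53.1 and 39.0 CPM. The day 3 level rests on 9 counts, and its interval, 40.3 to 168 CPM, holds the columnar level. The day 6 interval was 77.3 to 173 CPM. In the normal colon they held 72.1 CPM (4 counts), and *Nqo1* stood at 141 CPM in myofibroblasts (72 cells, 92.7 to 205), against 21.8 CPM in columnar cells. *Hmox1* was also high in fibroblasts of day 1 replicate 2, at 358 CPM (39 cells), beside 380.0 CPM in the macrophages and 21.2 CPM in the columnar cells of that library. The Paneth cells of day 1 replicate 2 (412 cells) held *Gsta1* at 171 CPM and *Gsta4* at 453 CPM, beside 107 and 261 CPM in its columnar cells. These values were chosen after they were seen, and no test was made.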
